A study of Mus musculus with 12 samples.

Results

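The expression of 8 genes of cholesterol synthesis and its control was described across 4 kinds of mouse adipose sample: Insig1, Hmgcs1, Sqle, Idi1, Fdps, Lss, Cyp51 and Srebf2. The genes were chosen by name, with earlier results of these data known. Each was read from a microarray probe set annotated to that gene alone. Where there were several, the one with the highest mean over the 12 arrays was taken. This gave values for 7 of the 8 genes, among 22180 genes that could be tested. The 1 probe set for Idi1 was also annotated to the predicted gene Gm13502, so Idi1 was not analysed here.

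All samples came from C57BL/6 mice and were taken fresh, with 3 biological replicates per group. Adipose progenitors (AP) were prepared from visceral adipose tissue (VAT, the perigonadal depot) and from subcutaneous adipose tissue (SAT, the inguinal depot), and were set against the unfractionated adipose tissue (AT) of the same kinds of depot. The groups are therefore AP from VAT, AP from SAT, AT from VAT and AT from SAT. AP were what remained of the enzymatically dissociated stromal-vascular cells after magnetic beads had removed blood-lineage and CD31-positive endothelial cells, so they were defined by the cells removed and not by a progenitor antigen, whereas AT was not dissociated and kept its adipocytes. Depots of several mice were used, but which animals went into each replicate, and their age and sex, are not given in the sources used here. The p-values therefore measure the spread between these samples, part of which may be technical.

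Cells build cholesterol from acetyl-CoA through mevalonate, isoprenoid phosphates and squalene, which is closed to lanosterol and then trimmed to cholesterol. The supply is sensed in the endoplasmic reticulum: while sterols are plentiful, Insig proteins hold the Scap escort and its cargo, the membrane-bound transcription factor SREBP, in place. When sterols run low the complex leaves for the Golgi apparatus, where the proteases encoded by Mbtps1 and Mbtps2 release the active factor, and the form encoded by Srebf2 then switches on the enzymes of the pathway together with Insig1, which closes a feedback loop. Adipose tissue is a large store of unesterified cholesterol, and adipocytes hold much of it at the surface of their lipid droplets.

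The deposited values are log2 intensities made by the robust multi-array average (RMA), so a difference of 1 is a doubling, and levels of different genes were not set against each other. Array medians lay between 4.49 and 4.67, and replicates of a group correlated at r of 0.9869 to 0.9936 over all genes, against 0.9104 to 0.9833 for arrays of different groups. All group means of the 7 genes were above the 40th percentile of all probe sets, 4.10, the lowest being 5.24 for Lss in AP from VAT. The labelled material was checked by marker genes averaged per array. The 5 adipocyte markers averaged 5.47 to 5.92 in AP from VAT, 5.19 to 5.57 in AP from SAT, 11.29 to 11.38 in AT from VAT and 10.79 to 10.98 in AT from SAT. The 5 progenitor markers, Pdgfra, Pdgfrb, Cd34, Dpp4 and Pi16, averaged 10.04 to 10.34 in AP from VAT, 10.80 to 10.92 in AP from SAT, 8.0 to 8.35 in AT from VAT and 8.14 to 9.40 in AT from SAT. No AP and AT arrays of these markers overlapped in SAT. In VAT those of Dpp4 did, with means of 8.54 in AP and 8.21 in AT. Pecam1, which encodes CD31, averaged 4.98 in AP from VAT and 4.94 in AP from SAT, against 7.81 in AT from VAT and 7.91 in AT from SAT.

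The promoters are shown first, because SREBP acts on these genes through sites near their starts. RefSeq's promoter table for GRCm38.p6 held 6 of the 8 genes. The 250 bases before the start of Hmgcs1 (chr13:119690101-119690350, plus strand), Srebf2 (chr15:82147019-82147268, plus strand), Insig1 (chr5:28071162-28071411, plus strand) and Cyp51 (chr5:4104698-4104947, minus strand) are printed 5′ to 3′ for the factor, its anchor and 2 enzymes that differed in their pattern. Capitals mark matches to 3 motifs, searched on both strands: TCACNCCA, the core of the sterol regulatory element that SREBP binds, CCAAT, the box of the partner factor NF-Y (ATTGG when it lies on the other strand), and CACGTG, an E-box, which SREBP can bind as well. The motif letters were chosen after the sequences were seen.
Hmgcs1: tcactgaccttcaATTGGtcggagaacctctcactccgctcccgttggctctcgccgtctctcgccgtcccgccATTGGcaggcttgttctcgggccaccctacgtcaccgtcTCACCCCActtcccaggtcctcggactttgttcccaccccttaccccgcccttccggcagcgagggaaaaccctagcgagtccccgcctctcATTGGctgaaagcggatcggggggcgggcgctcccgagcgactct
Srebf2: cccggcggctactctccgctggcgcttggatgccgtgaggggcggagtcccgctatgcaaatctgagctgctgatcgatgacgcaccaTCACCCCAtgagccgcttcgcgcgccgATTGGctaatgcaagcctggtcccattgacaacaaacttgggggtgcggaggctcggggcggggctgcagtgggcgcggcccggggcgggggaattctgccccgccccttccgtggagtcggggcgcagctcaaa
Insig1: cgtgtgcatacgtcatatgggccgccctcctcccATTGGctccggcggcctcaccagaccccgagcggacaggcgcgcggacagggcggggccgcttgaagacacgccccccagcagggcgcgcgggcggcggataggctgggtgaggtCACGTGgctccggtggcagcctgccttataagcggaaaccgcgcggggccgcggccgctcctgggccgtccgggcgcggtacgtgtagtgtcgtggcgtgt
Cyp51: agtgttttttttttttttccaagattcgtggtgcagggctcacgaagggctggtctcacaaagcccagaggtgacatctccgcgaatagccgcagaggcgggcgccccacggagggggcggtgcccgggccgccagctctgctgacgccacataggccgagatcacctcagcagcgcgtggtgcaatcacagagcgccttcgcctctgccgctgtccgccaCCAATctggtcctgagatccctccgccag
Hmgcs1 carried TCACCCCA from -137 to -130 and Srebf2 carried it from -162 to -155, counting back from the start. The sterol element core was thus found in 2 of the 6 windows, against 3.67% of the 32851 promoter windows of the same length. CCAAT was found in 6 of the 6 windows, against 33.8% of all windows, with 3 matches in Hmgcs1. The window of Insig1 held an E-box from -101 to -96, a motif found in 6.02% of all windows, and that of Cyp51 held a single CCAAT. The sterol core and CCAAT occurred together in Hmgcs1 and Srebf2, and in 1.29% of all windows. A match is a string of letters and was not tested as a binding site. Other spellings of these motifs were not searched, so a window without a match may still hold a site.

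AP were set against AT to see how the pathway differs between the progenitor preparation and the tissue it is taken from. Insig1, Hmgcs1 and Lss were lower in AP in both depots, and Srebf2, which encodes the factor that drives them, was higher in AP in both depots. Fdps and Cyp51 were called lower in AP in VAT, and Sqle was called higher in AP in SAT. In SAT 2 of the 7 genes were called higher and 3 lower at a limma adjusted p under 0.05, where 32.4% of all genes were called, 16.1% higher and 16.3% lower. In VAT 1 was called higher and 5 lower, where 32.6% of all genes were called, 15.8% higher and 16.8% lower. The median of the 7 log2 differences was -0.17 in SAT and -1.01 in VAT, against a median of 0.03 over all genes in each.

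**Figure D1:**
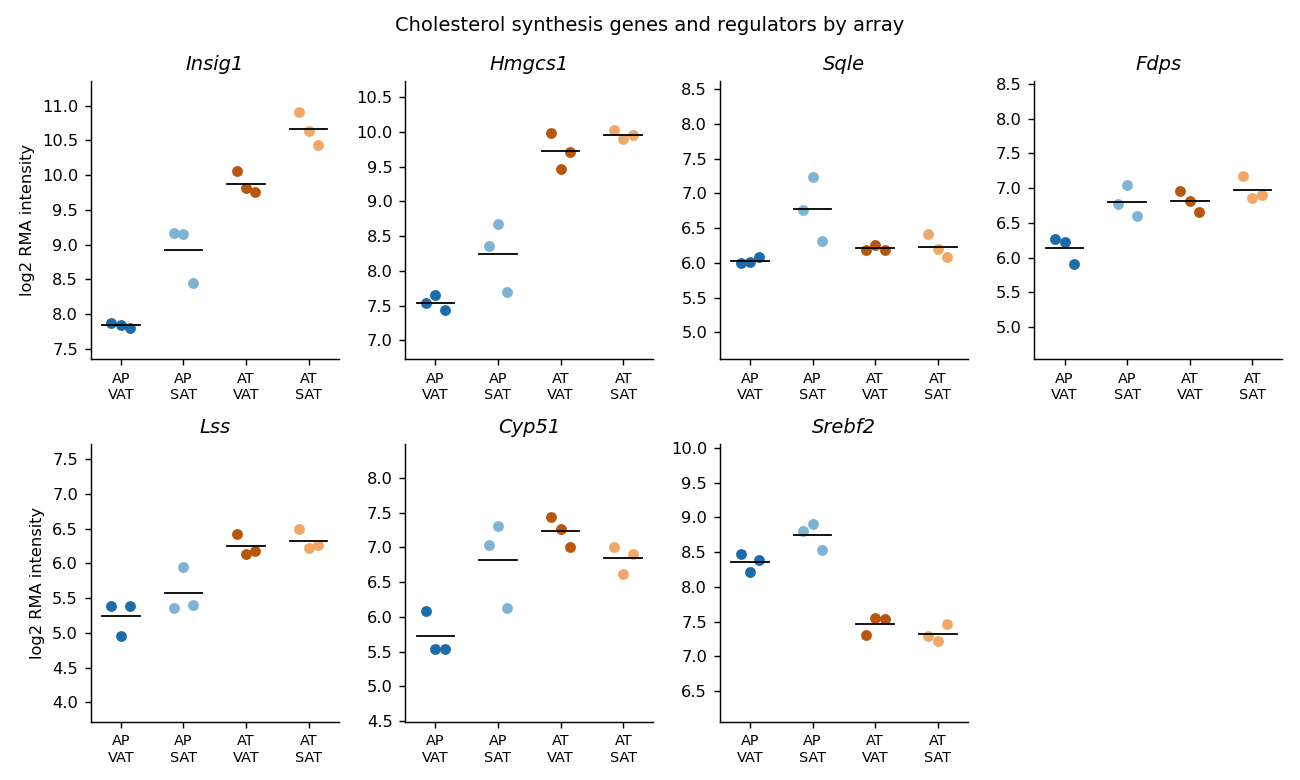
Log2 RMA intensity (vertical axes) of the 7 genes in the 4 groups, 1 panel per gene; points are the 3 arrays of a group and the horizontal bar is their mean. Insig1 and Hmgcs1 lie lowest in AP from VAT (means 7.84 and 7.54) and highest in AT from SAT (10.66 and 9.96), whereas Srebf2 lies higher in both AP groups (8.36 and 8.74) than in both AT groups (7.47 and 7.32).

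Insig1 (Entrez Gene 231070, chromosome 5, probe set 17435584) encodes the sterol-dependent anchor of the Scap-SREBP complex and is itself an SREBP target. It read 7.88, 7.84 and 7.80 in AP from VAT, 9.17, 9.16 and 8.45 in AP from SAT, 10.06, 9.82 and 9.76 in AT from VAT, and 10.91, 10.64 and 10.44 in AT from SAT. No 2 of the 4 groups overlapped, and their order was AT from SAT, AT from VAT, AP from SAT and AP from VAT from high to low. The AP mean was 4.11-fold lower in VAT, 7.84 ± 0.04 in AP and 9.88 ± 0.16 in AT (SD, n = 3 each; log2 difference -2.04, SE 0.17, adjusted p = 2.17e-07). In SAT it was 3.33-fold lower, 8.93 ± 0.41 in AP and 10.66 ± 0.24 in AT (log2 difference -1.74, SE 0.17, adjusted p = 1.11e-06).

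Hmgcs1 (Entrez Gene 208715, chromosome 13, probe set 17290173) encodes cytosolic HMG-CoA synthase, an early enzyme of the mevalonate route. Its arrays read 7.54, 7.65 and 7.43 in AP from VAT, 8.35, 8.67 and 7.70 in AP from SAT, 9.98, 9.47 and 9.71 in AT from VAT, and 10.03, 9.89 and 9.96 in AT from SAT. The 6 AP arrays lay below the 6 AT arrays, and of neighbouring groups in the order of means the 2 AT groups overlapped. Hmgcs1 was 4.53-fold lower in AP in VAT (log2 difference -2.18, SE 0.19, adjusted p = 3.08e-07) and 3.29-fold lower in AP in SAT (-1.72, SE 0.19, adjusted p = 3.47e-06). Among the 5 enzymes of the 7 genes these were the largest differences.

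Fdps (Entrez Gene 110196, chromosome 3, probe set 17406908) encodes farnesyl diphosphate synthase, at the branch where isoprenoids leave for protein prenylation. It read 6.27, 6.22 and 5.91 in AP from VAT, 6.77, 7.04 and 6.60 in AP from SAT, 6.96, 6.81 and 6.65 in AT from VAT, and 7.17, 6.86 and 6.90 in AT from SAT. The AP arrays from VAT lay below the other 9 arrays, while the other 3 groups overlapped each other. In VAT it was 1.60-fold lower in AP (log2 difference -0.67, SE 0.14, adjusted p = 0.00151), a call lost when arrays were scaled to housekeeping genes (-0.17, adjusted p = 0.371). In SAT the difference was -0.17 with a 95% confidence interval of -0.47 to 0.13 (adjusted p = 0.412).

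Sqle (Entrez Gene 20775, chromosome 15, probe set 17311807) encodes squalene epoxidase, the oxygen-dependent step that commits squalene to sterols. Its values were 6.00, 6.01 and 6.08 in AP from VAT, 6.76, 7.23 and 6.31 in AP from SAT, 6.18, 6.25 and 6.19 in AT from VAT, and 6.42, 6.20 and 6.08 in AT from SAT. AP from SAT stood out with 2 arrays above all others and an SD of 0.46, against 0.04 in AP from VAT. In SAT Sqle was 1.45-fold higher in AP (log2 difference 0.53, SE 0.17, adjusted p = 0.0249), although the groups overlapped. That call was lost without AP from SAT replicate 1 (adjusted p = 0.0589) or replicate 2 (log2 difference 0.30, adjusted p = 0.146), without AT from SAT replicate 2 (0.0632) or replicate 3 (0.0898), and with the SAT arrays fitted alone (0.0754). In VAT the difference was -0.18 (95% confidence interval -0.54 to 0.19, adjusted p = 0.477).

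Lss (Entrez Gene 16987, chromosome 10, probe set 17234552) encodes lanosterol synthase, which closes the sterol rings. It read 5.39, 4.95 and 5.38 in AP from VAT, 5.36, 5.94 and 5.40 in AP from SAT, 6.42, 6.14 and 6.18 in AT from VAT, and 6.49, 6.22 and 6.27 in AT from SAT. All AP arrays lay below all AT arrays, with overlap between the depots within each preparation. Lss was 2.01-fold lower in AP in VAT (log2 difference -1.01, SE 0.16, adjusted p = 0.000155) and 1.69-fold lower in AP in SAT (-0.76, SE 0.16, adjusted p = 0.0016).

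Cyp51 (Entrez Gene 13121, chromosome 5, probe set 17445308) encodes lanosterol demethylase, the first step after ring closure in the route to cholesterol. Its arrays read 6.08, 5.54 and 5.54 in AP from VAT, 7.03, 7.31 and 6.12 in AP from SAT, 7.44, 7.26 and 7.01 in AT from VAT, and 7.0, 6.61 and 6.91 in AT from SAT. AP from VAT lay below the other 9 arrays, whereas AP from SAT spanned the whole range of AT from SAT. Cyp51 was 2.86-fold lower in AP in VAT (log2 difference -1.52, SE 0.24, adjusted p = 0.000144). In SAT the difference was -0.02 with a 95% confidence interval of -0.54 to 0.50 (adjusted p = 0.966), and it took the other sign, at 0.33 (adjusted p = 0.231), without AP from SAT replicate 3.

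Srebf2 (Entrez Gene 20788, chromosome 15, probe set 17313504) encodes SREBP-2, the factor that switches on the sterol enzymes once it has been released from the membrane. It read 8.47, 8.22 and 8.39 in AP from VAT, 8.80, 8.90 and 8.53 in AP from SAT, 7.31, 7.55 and 7.54 in AT from VAT, and 7.29, 7.22 and 7.46 in AT from SAT. All 6 AP arrays lay above all 6 AT arrays. Srebf2 was 1.86-fold higher in AP in VAT (log2 difference 0.89, SE 0.12, adjusted p = 3.3e-05) and 2.68-fold higher in AP in SAT (1.42, SE 0.12, adjusted p = 2.42e-07). These arrays measure RNA, so the amount of cleaved factor in the nucleus was not measured. Across the 12 arrays its values ran against the mean of the 7 genes (Pearson r = -0.54, with all 7 centred on their own means), while the r of Insig1, Hmgcs1, Fdps, Lss and Cyp51 with that mean lay between 0.89 and 0.95 and that of Sqle was 0.44. The 12 arrays fall into 4 groups, and each gene is part of the mean it is set against.

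The AP and AT groups did not overlap for 4 of the 7 genes in SAT, against 44.6% of all genes, and for 7 of the 7 in VAT, against 40.9% of all genes. Other measures moved between AP and AT as well. The 6 macrophage markers averaged 5.02 to 5.22 in AP from VAT and 5.05 to 5.36 in AP from SAT, against 8.67 to 8.79 in AT from VAT and 8.55 to 9.34 in AT from SAT. The 6 mural markers, of pericytes and smooth muscle, averaged 9.70 to 9.85 in AP from VAT and 9.49 to 9.57 in AP from SAT, against 7.40 to 7.68 in AT from VAT and 7.62 to 7.69 in AT from SAT, and were called higher in AP for 6 of the 6 in VAT and 4 of the 6 in SAT. The 6 endothelial markers averaged 5.92 to 6.07 in AP from VAT and 5.78 to 6.01 in AP from SAT, against 7.51 to 7.97 in AT from VAT and 7.89 to 8.14 in AT from SAT. In each depot 5 of these 6 were called lower in AP and 1, Tek, higher. Tek averaged 7.49 in AP and 6.83 in AT from VAT, and 8.62 in AP and 7.48 in AT from SAT. Genes induced by tissue dissociation (Fos, Egr1, Hspa1a, Hspa1b, Atf3 and Jun) averaged 11.03 to 11.09 and 11.14 to 11.27 in AP from VAT and SAT, against 6.11 to 6.30 and 5.87 to 6.08 in AT from VAT and SAT, and 6 of the 6 were called higher in AP in each depot. The part of these markers in the differences of the sterol genes was not tested, and in bulk RNA fewer cells of a type and less RNA per cell cannot be told apart.

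**Figure D2:**
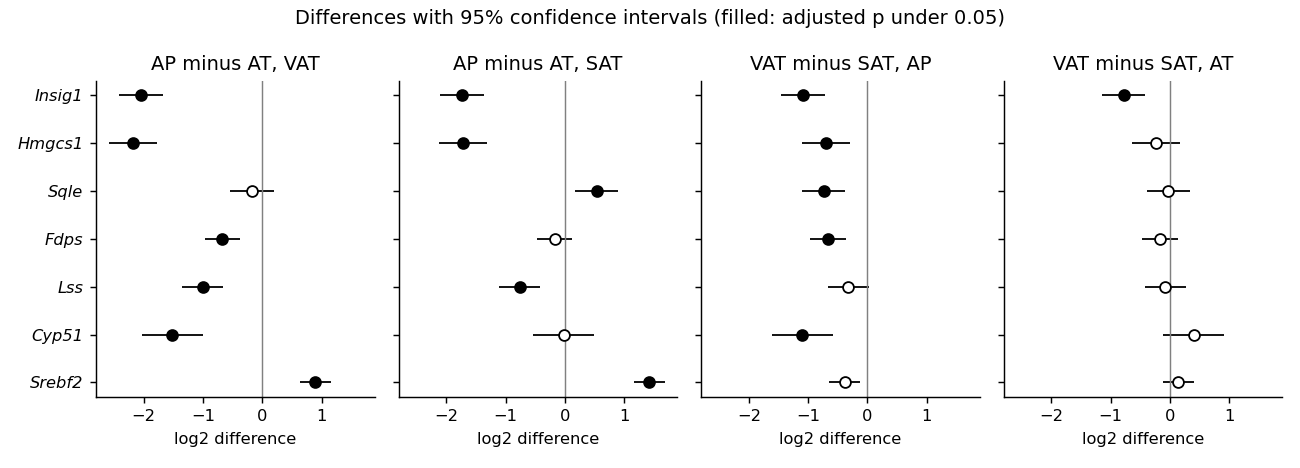
Log2 differences (horizontal axes) of the 7 genes in the 4 comparisons of groups, 1 panel each, with 95% confidence intervals; filled points passed an adjusted p under 0.05. AP minus AT is below 0 for Insig1 (-1.74 in SAT, -2.04 in VAT) and above 0 for Srebf2 (1.42 and 0.89), and VAT minus SAT in AP is below 0 for all 7 genes.

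The depots were compared within AP to see whether progenitors of visceral and subcutaneous fat differ in the pathway. In AP the measured values of all 7 genes were lower in VAT than in SAT. Of these, 5 were called lower and 0 higher, where 5.64% of all genes were called, 2.60% lower and 3.03% higher. The genes called were Insig1, Cyp51, Sqle, Fdps and Hmgcs1. The median of the 7 log2 differences was -0.70, against 0.00 over all genes, and the depots did not overlap for 6 of the 7, against 20.4% of all genes. Because the genes were chosen with earlier results of these data known, the shares over all genes are not an independent test.

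Insig1, the anchor, was 2.12-fold lower in AP from VAT than in AP from SAT (log2 difference -1.09, SE 0.17, adjusted p = 0.000874). This call held in all 22 alternative analyses, in which the adjusted p was at most 0.00748. Cyp51 was 2.14-fold lower (-1.10, SE 0.24, adjusted p = 0.0116), Sqle 1.67-fold lower (-0.74, SE 0.17, adjusted p = 0.0165), Fdps 1.59-fold lower (-0.67, SE 0.14, adjusted p = 0.00832) and Hmgcs1 1.63-fold lower (-0.70, SE 0.19, adjusted p = 0.044). Lss differed by -0.33 (95% confidence interval -0.67 to 0.02, adjusted p = 0.368) and was the gene whose depots overlapped. Srebf2 differed by -0.38 (95% confidence interval -0.65 to -0.12), which missed the threshold over all genes (adjusted p = 0.095).

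The count of called genes in AP depended on single arrays. It was 2 without AP from SAT replicate 1, 1 without replicate 2 of that group and 6 without its replicate 3. It was 3, 2 and 3 without AP from VAT replicates 1, 2 and 3. Hmgcs1 lost its call in 13 of 22 alternatives (adjusted p up to 0.216), more than the other 4 genes called, and Fdps was lost without AP from SAT replicate 2 (adjusted p = 0.0545) and under housekeeping scaling (0.0743). Sqle lost its call without replicate 1 (0.058) or 2 (0.0696) of AP from SAT, or replicate 1 (0.0617) or 2 (0.0652) of AP from VAT. Cyp51 lost its call without replicate 1 (0.0667) or 2 (0.0669) of AP from SAT, or replicate 2 (0.0682) or 3 (0.0505) of AP from VAT. Srebf2 passed the threshold without AP from SAT replicate 3 (log2 difference -0.49, adjusted p = 0.0458).

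Within AP from SAT the replicates themselves were spread out, and the genes moved together. Replicate 2 was the highest of its group for 6 of the 7 genes, with a mean deviation of 0.34 from the group mean, and replicate 3 was the lowest for 6 of the 7, with a mean deviation of -0.39. Cyp51 deviated by 0.49 and -0.70 in these arrays and Hmgcs1 by 0.43 and -0.54. The SD of the 7 genes ran from 0.19 to 0.62 in AP from SAT, against 0.04 to 0.31 in AP from VAT, 0.04 to 0.26 in AT from VAT and 0.07 to 0.24 in AT from SAT. Of 13 further cholesterol enzymes, 9 were also highest in replicate 2 and 9 lowest in replicate 3, with mean deviations of 0.16 and -0.20. The 14 lipid synthesis genes listed as SREBP-1 targets deviated by 0.02 and -0.09 on average and the median gene of the array by 0.00 and -0.01. Whether SREBP-1 drives them in these samples was not tested. These arrays correlated with the others of their group at 0.9918 or above. In AT from SAT a smaller spread also ran across the genes: replicate 1 was the highest for 6 of the 7 (mean deviation 0.14) and for 10 of the 13 further enzymes (0.14), and replicate 2 the lowest for 5 of the 7 (-0.10) and 7 of the 13 (-0.13). There the SREBP-1 targets deviated by 0.18 and -0.14 on average.

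**Figure D3:**
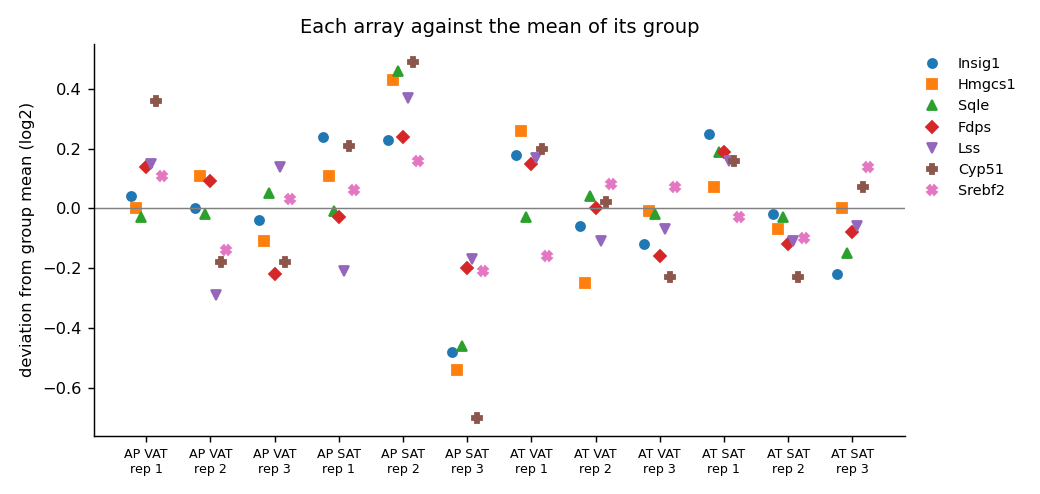
Deviation of each array from the mean of its own group (vertical axis, log2) for the 7 genes, with the 12 arrays along the horizontal axis. In AP from SAT replicate 2 lies above 0 for all 7 genes (0.16 to 0.49) and replicate 3 below 0 for all 7 (-0.70 to -0.17).

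Cell markers also differed between the depots of AP. The 6 mesothelial markers averaged 8.39 to 8.93 in AP from VAT and 5.18 to 5.47 in AP from SAT, and 6 of the 6 were called higher in VAT in AP and also in AT. Of the 5 progenitor markers 2 were called lower in VAT and 0 higher. These were Dpp4, with 8.54 in AP from VAT and 9.89 in AP from SAT, and Pi16, with 9.86 in AP from VAT and 11.48 in AP from SAT. Pdgfra (11.05 in AP from VAT, 11.07 in AP from SAT), Pdgfrb (10.45 and 10.44) and Cd34 (10.97 and 11.32) were not called. Of 6 mural markers 2 were called higher in VAT, Myh11 (10.68 in AP from VAT, 10.19 in AP from SAT) and Tagln (9.83 and 9.45). Of 6 endothelial markers Kdr (6.48 in AP from VAT, 5.10 in AP from SAT) and Emcn (5.91 and 5.10) were called higher in VAT and Tek (7.49 and 8.62) lower. Retn among 5 adipocyte markers (6.86 in AP from VAT, 6.15 in AP from SAT) and the keratins Krt8 (7.09 and 6.33) and Krt18 (6.37 and 5.45) among 5 mammary epithelial markers were called higher in VAT, and no macrophage or lymphocyte marker was called. The near-identical heat shock genes Hspa1a (10.67 in AP from VAT, 11.32 in AP from SAT) and Hspa1b (10.90 and 11.39) were called lower in VAT, while the 6 dissociation genes averaged 11.03 to 11.09 in AP from VAT and 11.14 to 11.27 in AP from SAT. The part of these differences in the values of the sterol genes was not tested.

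The same comparison of depots was made in whole tissue. Of the 7 genes, 1 was called lower in VAT and 0 higher, where 4.55% of all genes were called, 1.75% lower and 2.80% higher. That gene was Insig1, 1.72-fold lower in AT from VAT than in AT from SAT (log2 difference -0.78, SE 0.17, adjusted p = 0.0152), a call lost without AT from SAT replicate 1 (adjusted p = 0.0828) or AT from VAT replicate 3 (0.065). Cyp51 was higher in each array of AT from VAT than in AT from SAT, by 0.40 on average, with a 95% confidence interval of -0.12 to 0.91 (adjusted p = 0.48). Its groups nearly touched: the lowest array of AT from VAT read 7.01 and the highest of AT from SAT 7.0. The groups did not overlap for Insig1 and Cyp51 alone, 2 of the 7 genes, against 18.1% of all genes. The other 5 differences ran from -0.24 for Hmgcs1 to 0.14 for Srebf2.

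The difference between the depot effects was tested as an interaction, VAT minus SAT in AP minus the same in AT. Of the 7 genes, 1 was called, with a value below 0, where 2.15% of all genes were called, 1.16% below 0 and 0.987% above. It was Cyp51, with -1.10 in AP and 0.40 in AT (interaction -1.50, SE 0.34, adjusted p = 0.0342). The call was lost in 11 of 21 alternatives, in 8 of which 1 array was left out, with adjusted p of 0.0548 to 0.106 in those 8; the arrays were replicates 1 and 2 of AP from SAT, 2 and 3 of AP from VAT, 1 and 2 of AT from SAT, and 1 and 2 of AT from VAT. The interactions of the other 6 genes were below 0 as measured, from -0.71 for Sqle (adjusted p = 0.177) to -0.25 for Lss (0.724), and none was called. Without AP from SAT replicate 3 the interaction of Sqle was -0.94 and passed the threshold (adjusted p = 0.0278). For Insig1, called in both preparations, the interaction was -0.30 with a 95% confidence interval of -0.83 to 0.22.

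The remaining enzymes of the pathway were described from a written list, of which 13 of 16 had a probe set of their own. In SAT 2 of the 13 were called higher and 6 lower in AP, where 32.4% of all genes were called. In VAT 1 was called higher and 7 lower, where 32.6% of all genes were called. The medians of the 13 enzymes were -0.33 in SAT and -0.51 in VAT. Those that fell most were Pmvk, the mevalonate pathway's phosphomevalonate kinase (6.10 ± 0.07 in AP and 8.09 ± 0.01 in AT from VAT, 6.25 ± 0.10 and 8.20 ± 0.13 from SAT), Nsdhl, a sterol dehydrogenase (-1.54 in VAT, -1.55 in SAT), and Sc5d, a late desaturase (-1.68 in VAT, -1.34 in SAT). Hsd17b7, the ketoreductase that works beside Nsdhl, ran the other way, 0.59 higher in VAT and 0.90 higher in SAT. Its VAT call was lost without replicate 1 (adjusted p = 0.0897) or 3 (0.0738) of AP from VAT, or replicate 1 (0.0625) or 2 (0.0522) of AT from VAT. Mvk, mevalonate kinase, was 0.30 higher in AP in SAT (adjusted p = 0.0489), a call lost in 13 alternatives, among them leaving out any 1 array other than replicate 2 of AP from VAT, 3 of AP from SAT and 1 of AT from VAT (adjusted p up to 0.22, without AP from SAT replicate 2).

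By depot, none of the 13 was called in AP by limma, where 5.64% of all genes were called. All 13 were below 0 as measured, with a median of -0.15. Msmo1, the methyl oxidase that acts after Cyp51, had the lowest value, -0.70 (adjusted p = 0.0531), followed by Fdft1, squalene synthase, at -0.53 (0.234) and Ebp, the sterol isomerase, at -0.46 (0.0529), as chosen after their values were seen. Msmo1 read 6.00, 6.30 and 5.83 in AP from VAT and 6.85, 7.20 and 6.19 in AP from SAT. Its replicate 3 of AP from SAT was again the lowest of the group and replicate 2 the highest. In AT the median was -0.01 and none was called, where 4.55% of all genes were called.

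**Figure D4:**
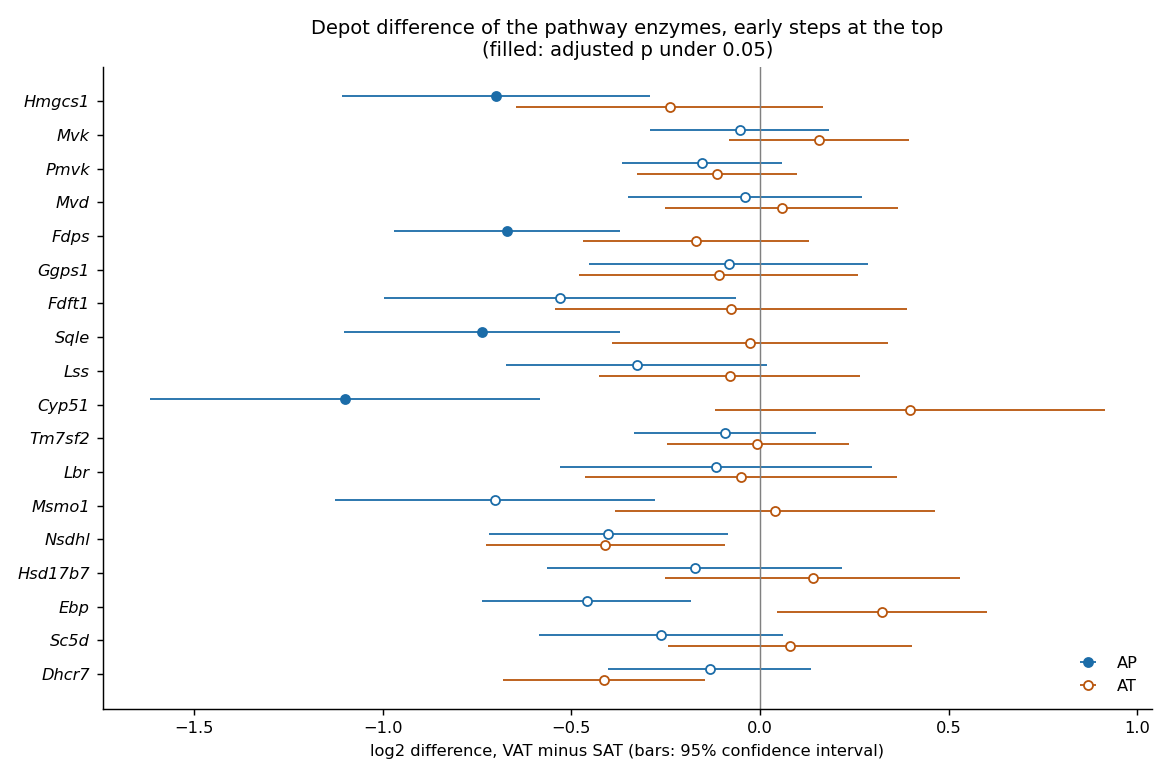
Log2 difference VAT minus SAT (horizontal axis) with 95% confidence intervals for the enzymes of cholesterol synthesis, early steps at the top, in AP and in AT; filled points passed an adjusted p under 0.05. In AP the enzymes lie below 0, from -1.10 for Cyp51 to -0.04 for Mvd, while in AT they lie on both sides of 0.

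A further list held Srebf1, the genes that hold, move and cut SREBP, and ubiquitin ligases and their partners that act in sterol-dependent protein degradation at the endoplasmic reticulum. Of its 11 genes measured, 3 were called higher and 4 lower in AP in each depot. Over all genes 32.4% were called in SAT and 32.6% in VAT. None of the 11 was called by depot in AP or AT, where 5.64% and 4.55% of all genes were called. Scap, the escort, averaged 8.01 ± 0.18 in AP and 7.53 ± 0.12 in AT from VAT (log2 difference 0.48, adjusted p = 0.00263), and 8.01 ± 0.03 in AP and 7.22 ± 0.04 in AT from SAT (0.79, adjusted p = 2.68e-05). Mbtps1, the first protease to cut SREBP, was 0.41 higher in AP in VAT and 0.82 higher in SAT, and Syvn1, a ubiquitin ligase of the endoplasmic reticulum, 0.32 and 0.63 higher. The VAT calls were lost for Mbtps1 without AP from VAT replicate 3 (adjusted p = 0.0742) or AT from VAT replicate 1 (0.0621), and for Syvn1 without AP from VAT replicate 1 (0.0519). Srebf1, whose products drive fatty acid synthesis, was lower in AP, unlike Srebf2: 7.07 ± 0.09 in AP and 8.45 ± 0.23 in AT from VAT, and 7.32 ± 0.07 in AP and 8.38 ± 0.02 in AT from SAT (log2 differences -1.38 and -1.06, adjusted p = 1.73e-07 and 2.64e-06). Insig2, the related anchor protein, was lower in AP by a smaller amount, -0.56 in VAT (adjusted p = 0.00704) and -0.42 in SAT (0.0351). In SAT this was lost without AP from SAT replicate 1 (0.0733) or 2 (0.136) or AT from SAT replicate 2 (0.149), and housekeeping scaling ended it in both depots (0.727 in VAT, 0.262 in SAT).

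Genes for sterol uptake, movement and storage also went both ways. Of 12 measured, 3 were called higher and 4 lower in AP in VAT, and 4 higher and 5 lower in SAT. Over all genes 32.6% were called in VAT and 32.4% in SAT. Scarb1, the receptor for high-density lipoprotein, was lower in AP, with log2 differences of -2.75 in VAT and -2.33 in SAT (adjusted p = 2.02e-10 and 1.21e-09). So was Lipe, the lipase of lipid droplets that also frees cholesterol from its esters, with -2.36 in VAT and -2.07 in SAT. Higher in AP were Lrp1, an endocytic lipoprotein receptor, by 1.48 in VAT and 1.57 in SAT, and Npc1, which exports cholesterol from lysosomes, by 0.64 and 0.77. For Npc1 the VAT value was 0.30 (adjusted p = 0.0523) when its probe sets were averaged. Of the 12 LXR-related and efflux genes, 3 were called higher and 5 lower in AP in VAT (32.6% of all genes called). In SAT 4 were called each way (32.4% of all genes called). Apoc1 and Apoe, which encode apolipoproteins, were lower in AP, with log2 differences of -3.06 and -1.14 in VAT and -3.54 and -1.58 in SAT, as was Abca1, the cholesterol exporter, with -0.81 in VAT and -0.65 in SAT. Cyp27a1, which makes an oxysterol, was higher in AP by 1.78 in VAT and 0.93 in SAT.

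The list of SREBP-1 targets, for the fatty acid branch, had the largest median difference between AP and AT of the 5 pathway lists. Of 14 genes measured, 12 were called lower and 1 higher in AP in VAT, where 32.6% of all genes were called. In SAT 12 were called lower and 2 higher, where 32.4% of all genes were called. The median log2 differences were -3.01 in VAT and -3.46 in SAT. Fasn, fatty acid synthase, averaged 8.15 ± 0.08 in AP and 12.40 ± 0.17 in AT from VAT, and 8.75 ± 0.24 in AP and 12.63 ± 0.09 in AT from SAT. Thrsp, a lipogenic nuclear protein, had log2 differences of -5.54 in VAT and -5.47 in SAT, and Pnpla3, a lipid droplet protein, -4.49 in VAT and -4.69 in SAT. Fads2, a desaturase, ran the other way, 1.48 higher in AP in VAT and 1.56 higher in SAT. Fads1, also a desaturase, was called higher in AP in SAT as well, with 9.22 in AP and 8.24 in AT. In VAT it averaged 9.21 in AP and 9.18 in AT and was not called. By depot in AP, where 5.64% of all genes were called, 1 of the 14 was called, Fasn at -0.60 (adjusted p = 0.00889). This call was lost without AP from SAT replicate 2 (0.0551) and under housekeeping scaling (-0.48, adjusted p = 0.0598). The median of the 14 by depot in AP was -0.04, beside -0.70 for the 7 cholesterol genes and -0.15 for the 13 further enzymes.

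The genes outside the lists whose 12 values were most like the mean of the 7 were Dnajc11 (Pearson r = 0.957), Ddx39b (0.951), Casp1 (0.935), Cnih1 (0.926) and Eed (0.925). Casp1, which encodes an inflammatory caspase, averaged 5.42 ± 0.24 in AP from VAT, 6.81 ± 0.30 in AP from SAT, 7.32 ± 0.38 in AT from VAT and 7.43 ± 0.06 in AT from SAT. Like Insig1 and Hmgcs1, all 5 had their lowest group mean in AP from VAT and their next lowest in AP from SAT. The likeness is over arrays that share 4 groups, and these genes were picked for it.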

How the data were processed

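Affymetrix arrays were used for 12 samples, 3 in each of 4 groups. Each probe set has a deposited log2 intensity, which the authors computed by RMA in Affymetrix Expression Console 1.3.0.187, per the submitters' processing notes. Base 2 was inferred from this method and from values between 1.69 and 13.48. The level of summary and the annotation library are not given in the sources used here. RMA quantile-normalizes the arrays, so a change shared by most genes would not show.

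Of 41345 probe sets, 23521 were annotated to 1 gene, 1814 to several and 16010 to none. The first kind was used, with the highest mean kept where a gene had several (1082 genes), which left 22180 genes. limma 3.58.1 in R 4.3.3 fitted 1 mean per group with a shared spread (8 residual and 6.84 prior degrees of freedom) and 5 contrasts. Tests were 2-sided, p-values were adjusted by Benjamini-Hochberg over all genes per contrast, with 0.05 as the threshold for a call. SE is that of the fit, and SD is taken over the arrays of a group. Precision is limited by how few arrays there are.

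The members and lists were chosen with earlier results of these data known. Named are all members, up to 3 called rises and 3 called falls per list and contrast, Srebf1, Scap, Insig2 and the defining markers, plus the 5 most alike genes. From the measured values the text gives a selection of these. Alternatives were 10 other settings and leaving out each of the 12 arrays. Simulated data were used to test the code, and Python 3.11.15 drew the plots. Scanner files were not used here.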

Additional observations from a re-analysis of the deposited data

Results flagged for a closer look

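Of the 69 sterol and lipid genes of the lists that were tested, 6 had a depot difference (VAT minus SAT) in AP that differed from that in AT by the interaction test, where 2.15% of all genes were called. The gene of the sterol pathway given above, Cyp51, had an interaction of -1.50 (adjusted p = 0.0342). Ebp, the sterol isomerase, had -0.78 (adjusted p = 0.0389), from -0.46 in AP and 0.32 in AT. It read 6.61, 6.59 and 7.06 in AP from VAT and 7.18, 7.07 and 7.39 in AP from SAT, against 7.45, 7.50 and 7.32 in AT from VAT and 7.13, 7.12 and 7.05 in AT from SAT. Fads1, a fatty acid desaturase, had -0.95 (adjusted p = 0.0297), from -0.01 in AP and 0.94 in AT.

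In the other direction, Vldlr, a lipoprotein receptor, had an interaction of 1.00 (adjusted p = 0.0208), from 0.41 in AP and -0.59 in AT. Gramd1b, which carries sterols from the plasma membrane to the endoplasmic reticulum, had 0.97 (adjusted p = 0.0037), from 0.61 in AP and -0.36 in AT. It read 5.54, 5.61 and 5.90 in AP from VAT and 5.02, 5.08 and 5.13 in AP from SAT, against 5.95, 5.96 and 5.87 in AT from VAT and 6.21, 6.28 and 6.37 in AT from SAT. Cyp27a1 had 0.85 (adjusted p = 0.0337), from 1.02 in AP and 0.17 in AT. The call was kept in all 21 alternatives for Gramd1b, and was lost in 4 for Vldlr, 9 for Fads1, 11 each for Cyp51 and Cyp27a1, and 13 for Ebp. Leaving out 1 array ended the call of Vldlr for replicates 1 and 3 of AP from SAT, 1 of AP from VAT and 3 of AT from VAT, and that of Fads1 for replicates 1 and 2 of each AP group and of AT from SAT and 1 and 3 of AT from VAT. It ended the call of Cyp27a1 for every array but AT from SAT replicate 2, and that of Ebp for every array but AP from SAT replicate 2 and AP from VAT replicate 3. The highest adjusted p over these alternatives was 0.0156 for Gramd1b, 0.0556 for Vldlr, 0.137 for Fads1, 0.106 for Cyp51, 0.0959 for Cyp27a1 and 0.115 for Ebp.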

How the results depend on the processing

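Of the calls on the 7 genes, 353 results under the alternatives kept direction and side of the threshold and 42 fell short of it. Of the uncalled results, 355 stayed as they were, 2 passed it and 11 changed sign. With each array left out in turn, 4 to 5 genes were called for AP against AT in SAT, 6 in VAT, 1 to 6 between depots in AP, 0 to 1 between depots in AT and 0 to 2 for the interaction. Same-numbered replicates deviated from their group means with correlations of -0.28 to 0.159, so the numbers were not taken to pair samples. The replicate number as a fixed block left the counts at 5, 6, 5, 1 and 1, and as a random block (correlation -0.0592) at 5, 6, 4, 1 and 0. The interaction count was also 0 under cyclic loess and under scaling to 12 housekeeping genes. That scaling moved the median gene by 0.28 and 0.54 for AP minus AT in SAT and VAT, 0.12 and -0.14 between depots in AP and AT, and 0.25 for the interaction, and it gave 3 called genes between depots in AP. Over all genes it called 17860 for AP against AT in VAT, where 7239 were called as reported. With it 78.0% and 91.9% of calls for AP against AT in SAT and VAT were higher (49.7% and 48.4% as reported), 73.3% and 30.5% between depots in AP and AT (53.8% and 61.5%), and 87.6% for the interaction (46.0%, and 56.6% under cyclic loess). Between depots in AT, 1009 genes were called, 601 with those groups alone and 660 to 1026 with 1 array left out. For the interaction 476 were called, and 264 to 626 with 1 array left out.

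Changes of sign were confined to uncalled values and to called values of 5 genes under housekeeping scaling, and their cause beyond the shift of the median was not tested. For AP minus AT in SAT, Cyp51 became 0.013 with array weights and with quantile normalization, 0.232 under housekeeping scaling, and ran from -0.265 to 0.33 with 1 array left out (0.06 without AT from SAT replicate 1 and 0.015 without its replicate 3), and Fdps became 0.078 under housekeeping scaling. In VAT that scaling gave 0.332 for Sqle, 0.095 for Tm7sf2 and Erlin1, 0.015 for Erlin2, 0.205 for Lpcat3 and 0.055 for Elovl5, and for the interaction 0.01 for Lss. Between depots in AT, Sqle ran from -0.103 to 0.067 and Lss from -0.167 to 0.002 with 1 array left out, both above 0 without AT from SAT replicate 1. Of the results on pathway genes, 2061 were unchanged in call and direction and 129 fell short of the threshold.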

Other observations

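Between the depots, 1 gene each of the 12 uptake and transport genes, the 12 LXR and efflux genes and the 14 SREBP-1 targets was called in AP, where 5.64% of all genes were called. These were Gramd1b, higher in VAT by 0.61 (adjusted p = 0.00218), Cyp27a1, higher in VAT by 1.02 (0.000188), and Fasn, given above. Cyp27a1 read 9.07, 9.04 and 9.20 in AP from VAT and 8.20, 7.95 and 8.11 in AP from SAT, with no overlap, and 7.31, 7.34 and 7.32 in AT from VAT and 7.23, 6.80 and 7.43 in AT from SAT. In AT, where 4.55% of all genes were called, the genes called were Elovl6, a fatty acid elongase, with 9.27 ± 0.98 in VAT and 11.01 ± 0.42 in SAT (log2 difference -1.75, adjusted p = 0.0057), Fads1, with 9.18 ± 0.05 in VAT and 8.24 ± 0.35 in SAT (0.94, adjusted p = 0.00126), and Vldlr, with 7.09 ± 0.13 in VAT and 7.69 ± 0.29 in SAT (-0.59, adjusted p = 0.0314). The call of Elovl6 was lost with the AT arrays fitted alone (0.0595), and that of Vldlr in the same fit (0.0884) and without AT from SAT replicate 1 (0.156) or AT from VAT replicate 2 (0.0701) or 3 (0.121).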
